A study of Mus musculus with 10 samples.

Results

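Complex I of the respiratory chain was examined through the 44 genes whose annotated symbol begins with Nduf, out of 23111 genes measured in mouse colon tumours. By name 35 are subunit genes (Ndufa, Ndufb, Ndufc, Ndufs and Ndufv), 8 are assembly factor genes (Ndufaf) and 1, Ndufs5-ps, is annotated as a transcribed pseudogene. Subunits encoded by the mitochondrial genome and complex I genes beyond these 44 Nduf rows were not analysed here, apart from 13 assembly genes with other names. The arrays profiled 10 colon tumours of C57BL6/J mice, 5 from Ucp2+/+ animals (WT, replicates 1 to 5) and 5 from Ucp2-/- animals (KO, replicates 6 to 10). All mice had received azoxymethane, a carcinogen, and dextran sodium sulphate, which injures the colon lining (AOM/DSS), and were killed at week 15. Each sample was run on 1 array, and the values are log2 signals of whole tumour tissue. The labels do not say in which cells Ucp2 was lost. They also do not tie samples to individual animals, and the p-values below reflect the spread among the 10 samples, which may be technical.

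Complex I is the entry point of electrons from NADH into the respiratory chain. Its matrix arm holds the N module, which oxidises NADH, and the Q module, which passes the electrons to ubiquinone, while the membrane arm pumps protons and carries the ND1, ND2, ND4 and ND5 modules, named after mitochondrially encoded subunits. Core subunits are shared with bacteria, accessory subunits surround them, and assembly factors help to build the complex and then leave it. Ucp2, the gene that was knocked out, encodes a carrier of the same inner membrane, and the absorptive cells of the colon are known for their reliance on mitochondrial oxidation. All of the genes described here are nuclear.

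Of the 44 genes, 38 had a promoter window in RefSeq (GRCm38.p6), reaching from 250 bases before the start of the gene to 50 bases after it. The windows of 5 genes are shown because these genes are singled out below. Motifs were not related to the expression values. Ndufa8 and Ndufv3 differed most between the genotypes and followed each other across tumours, Ndufa5 and Ndufc1 followed each other most closely, and Ndufc2 lies on the chromosome of Ucp2. Sequences run 5′ to 3′ along the gene, and capitals mark matches on either strand to GCATGCG (part of the site of the factor NRF1), CCGGAAG (the ETS family, which includes GABPA) or ATGGCGG (part of the site of YY1).
Ndufa8, chr2:36049289-36049588, minus strand: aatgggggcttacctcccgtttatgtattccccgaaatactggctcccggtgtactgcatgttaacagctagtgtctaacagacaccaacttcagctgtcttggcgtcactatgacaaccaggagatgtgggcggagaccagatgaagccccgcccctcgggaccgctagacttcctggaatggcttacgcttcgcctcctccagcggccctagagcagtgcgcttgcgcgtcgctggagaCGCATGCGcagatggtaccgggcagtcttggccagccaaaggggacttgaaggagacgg
Ndufv3, chr17:31519865-31520164, plus strand: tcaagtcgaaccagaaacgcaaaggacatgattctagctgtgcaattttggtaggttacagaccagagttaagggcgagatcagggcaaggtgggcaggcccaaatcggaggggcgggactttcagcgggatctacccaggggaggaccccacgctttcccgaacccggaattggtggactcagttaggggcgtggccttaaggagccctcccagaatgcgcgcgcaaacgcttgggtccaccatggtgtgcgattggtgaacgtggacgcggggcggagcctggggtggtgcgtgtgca
Ndufa5, chr6:24527477-24527776, minus strand: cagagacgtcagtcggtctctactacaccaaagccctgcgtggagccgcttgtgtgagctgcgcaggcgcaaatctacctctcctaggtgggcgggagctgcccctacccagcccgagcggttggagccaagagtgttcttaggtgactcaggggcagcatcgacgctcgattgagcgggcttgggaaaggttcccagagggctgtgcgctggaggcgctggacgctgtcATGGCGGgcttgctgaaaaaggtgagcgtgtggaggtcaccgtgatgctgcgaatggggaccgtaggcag
Ndufc1, chr3:51408906-51409205, minus strand: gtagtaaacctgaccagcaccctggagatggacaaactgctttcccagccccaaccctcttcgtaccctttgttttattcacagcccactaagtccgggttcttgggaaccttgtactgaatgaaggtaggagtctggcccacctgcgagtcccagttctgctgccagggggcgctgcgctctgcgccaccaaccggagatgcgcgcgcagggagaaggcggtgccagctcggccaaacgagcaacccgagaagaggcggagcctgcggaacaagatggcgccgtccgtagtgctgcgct
Ndufc2, chr7:97399753-97400052, plus strand: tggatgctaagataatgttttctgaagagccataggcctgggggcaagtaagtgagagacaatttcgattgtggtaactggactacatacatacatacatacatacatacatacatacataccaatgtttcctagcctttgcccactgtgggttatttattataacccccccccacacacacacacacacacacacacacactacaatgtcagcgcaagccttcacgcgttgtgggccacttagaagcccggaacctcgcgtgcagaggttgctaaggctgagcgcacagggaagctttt
Within these windows Ndufa8 held the NRF1 letters, on both strands in 1 overlapping run, and Ndufa5 held the YY1 letters once. No motif lay in the windows of Ndufv3, Ndufc1 and Ndufc2.

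Over the 31 subunit genes with a window, ATGGCGG was found in 8 (25.8%), CCGGAAG in 4 (12.9%) and GCATGCG in 3 (9.68%). Among all 27025 genes of the promoter table the shares were 4.69%, 9.93% and 4.01%. In the subunit genes of complexes II to V, which are the other machines of oxidative phosphorylation, the order was different, with CCGGAAG in 12 of 31 (38.7%), GCATGCG in 6 (19.4%) and ATGGCGG in 2 (6.45%). The letters ATGGCGG also contain a start codon, and the Nduf windows were richer in G and C (median 59.3% against 52.7%), so these shares are counts of letters only. Of the 7 assembly factor genes with a window, 2 matched each motif, and 1 of them, Ndufaf8, matched both ETS and YY1 letters. Ndufa2, Ndufa4l2, Ndufaf6, Ndufb9, Ndufs1 and Ndufs5-ps had no entry.

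The row that carries the gene number of Ucp2 is not named in the annotation. Its log2 signal lay between 10.84 and 11.55 in WT and between 9.73 and 9.97 in KO tumours. The means were 11.30 and 9.84, a difference of -1.45. The KO signal of this row thus stayed above the guide to background given below. Median correlations of an array with the others ran from 0.981 to 0.988 across the WT arrays and from 0.986 to 0.990 across the KO arrays. WT replicate 5 stood apart from the rest on the first principal component of all genes, at 48.2 against -33.2 to 9.23. The lowest on it were KO replicate 7 (-33.2) and KO replicate 8 (-23.5). The presence of epithelium was checked with 8 epithelial markers, which had mean signals from 9.20 (Cldn7) to 11.72 (Krt8), all above 5.14. This guide to background is the level under which 95% of 1088 olfactory receptor genes lie. Such a check cannot tell tumour from normal colon.

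The first question was whether loss of Ucp2 goes with a different level of complex I genes. No single gene passed the test. By limma with Benjamini-Hochberg adjustment, 0 of the 44 passed an adjusted p of 0.05, where 0% of all genes did (0 of 23111). The 23111 leave out 636 unnamed rows, among them that of Ucp2. With all 23747 probe sets tested, 3 passed, and 0 of the 44 did. Among the 23111, 2 of the 44 had an unadjusted p under 0.05, Ndufa8 and Ndufv3, both with more signal in KO. This is 4.55% of the members against 4.77% of all genes. Split by direction, 2.22% of all genes were higher and 2.55% lower in KO at this threshold. In none of the 44 did the values of the genotypes separate completely, as they did in 0.835% of all genes (KO above WT in 0.329%, below in 0.506%). The differences of the 44 ran from -0.12 (Ndufaf1) to 0.28 (Ndufv3), with a median size of 0.054 against 0.071 over all genes.

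The intervals bound what could have been missed. Without adjustment for the number of genes, the 95% interval of the KO minus WT difference lay within 1.5-fold in either direction in all 44 genes, and within 1.25-fold in 36. The half-width of the interval had a median of 0.18 on the log2 scale, or 1.14-fold, and ran from 0.12 to 0.35. Differences of dim probe sets are compressed by the processing, which concerns Ndufb3 and Ndufa4l2, the 2 members with mean signals below the guide to background. RNA per cell and the number of cells of a type cannot be told apart in whole tumour tissue.

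**Figure D1:**
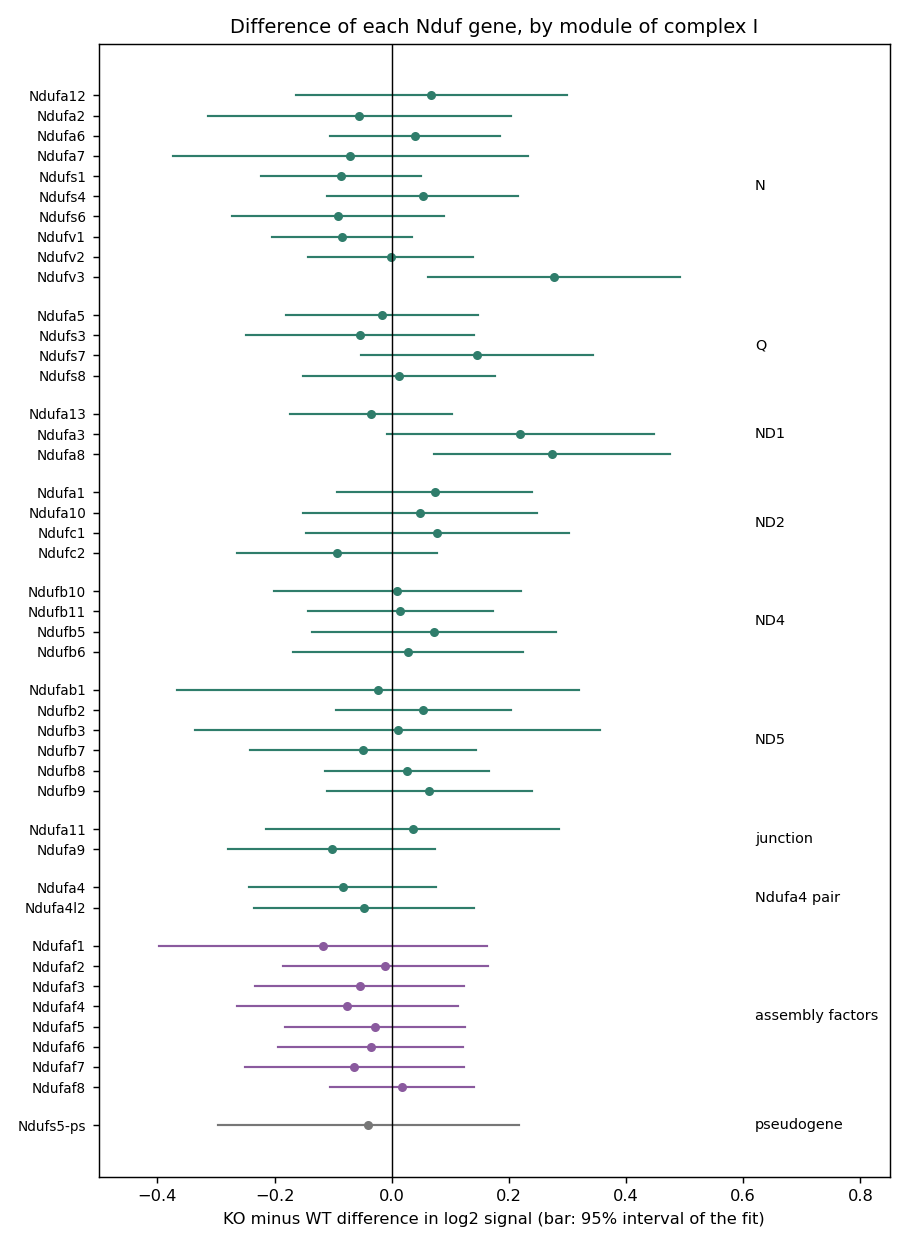
KO minus WT difference in log2 signal of each of the 44 Nduf genes (points) with the 95% interval of the limma fit (bars), grouped by the module of complex I, with subunits in green, assembly factors in purple and the pseudogene in grey. The intervals of Ndufa8 and Ndufv3 leave out 0, and those of the other 42 genes contain it.

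Ndufa8 encodes an accessory subunit of the ND1 module that faces the intermembrane space. Its log2 signal was 9.19, 9.17, 9.20, 9.18 and 9.02 in WT replicates 1 to 5 and 9.18, 9.62, 9.62, 9.41 and 9.30 in KO replicates 6 to 10. KO replicates 7 and 8 were highest and KO replicate 6 lay among the WT tumours, so the groups overlapped in 1 KO value. The means were 9.15 ± 0.07 (SD, n = 5) and 9.43 ± 0.19, a difference of 0.27 ± 0.091 (SE) or 1.21-fold, with a limma adjusted p of 0.910.

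Ndufv3 encodes an accessory subunit of the N module, at the NADH-oxidising tip. Its log2 signal was 6.90, 6.72, 6.85, 6.97 and 6.70 in WT and 6.81, 7.27, 7.28, 7.14 and 7.02 in KO. The same tumours stood out, with KO replicates 7 and 8 on top and KO replicate 6 within the WT range. The difference was 0.28 ± 0.097 (SE), also 1.21-fold, with a limma adjusted p of 0.910. Over all alternatives tried, the smallest adjusted p was 0.810 for Ndufa8 and 0.800 for Ndufv3, and leaving out single arrays moved the differences between 0.22 and 0.34 and between 0.23 and 0.35.

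Ndufa3, a small membrane subunit of the ND1 module, had the next smallest p. Its signal was 10.02, 9.98, 9.82, 10.03 and 9.67 in WT and 9.89, 10.39, 10.14, 10.16 and 10.03 in KO, a difference of 0.22 ± 0.10 (SE; limma adjusted p = 0.910), or 0.16 without WT replicate 5. That array was the lowest and KO replicate 7 the highest of the 10 values, and the groups overlapped. The remaining ND1 gene of the 44, Ndufa13, differed by -0.035 ± 0.063, so the 3 genes of this module did not share a direction.

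Markers of other cells were set beside these genes. The score of 6 smooth muscle markers, which is their mean log2 signal relative to the 10 arrays, was 0.98 and 0.54 in KO replicates 7 and 8, 0.34 in KO replicate 9, 0.10 in KO replicate 6 and -0.71 in KO replicate 10, and it ran from -0.87 to 0.26 in WT. All 6 markers had positive differences between 0.37 and 0.70, and 0 passed at unadjusted p under 0.05. KO replicate 10 was the second lowest of all arrays in this score. Its Ndufa8 (9.30) and Ndufv3 (7.02) signals lay above every WT value. Across the 10 arrays the smooth muscle score went with Ndufa8 at r = 0.76, with Ndufv3 at r = 0.74, with Ndufs7 at r = 0.76 and with Ndufa3 at r = 0.71. With this score as a covariate the differences became 0.18, 0.18, 0.055 and 0.12, and 0 of the 44 genes were left at unadjusted p under 0.05. The score itself had means of -0.25 in WT and 0.25 in KO, so this fit cannot separate it from genotype. Over the 35 subunits the median r with the score was 0.11.

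Macrophage markers were also high in KO replicates 7 and 8. At unadjusted p under 0.05 each of the 7 was higher in KO, as were 2.22% of all genes. Their score ran from -0.33 to -0.063 in WT and from -0.027 to 0.50 in KO. The correlation of this score was 0.89 with Ndufa8, 0.82 with Ndufv3 and -0.84 with Ndufv1, and this score also differs between the genotypes. Over the 35 subunits the median r with it was 0.13, with 4 genes over 0.5 and 3 under -0.5. No fit was made with the macrophage score as a covariate. The part of smooth muscle cells or macrophages in the Ndufa8 and Ndufv3 differences was not tested.

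**Figure D2:**
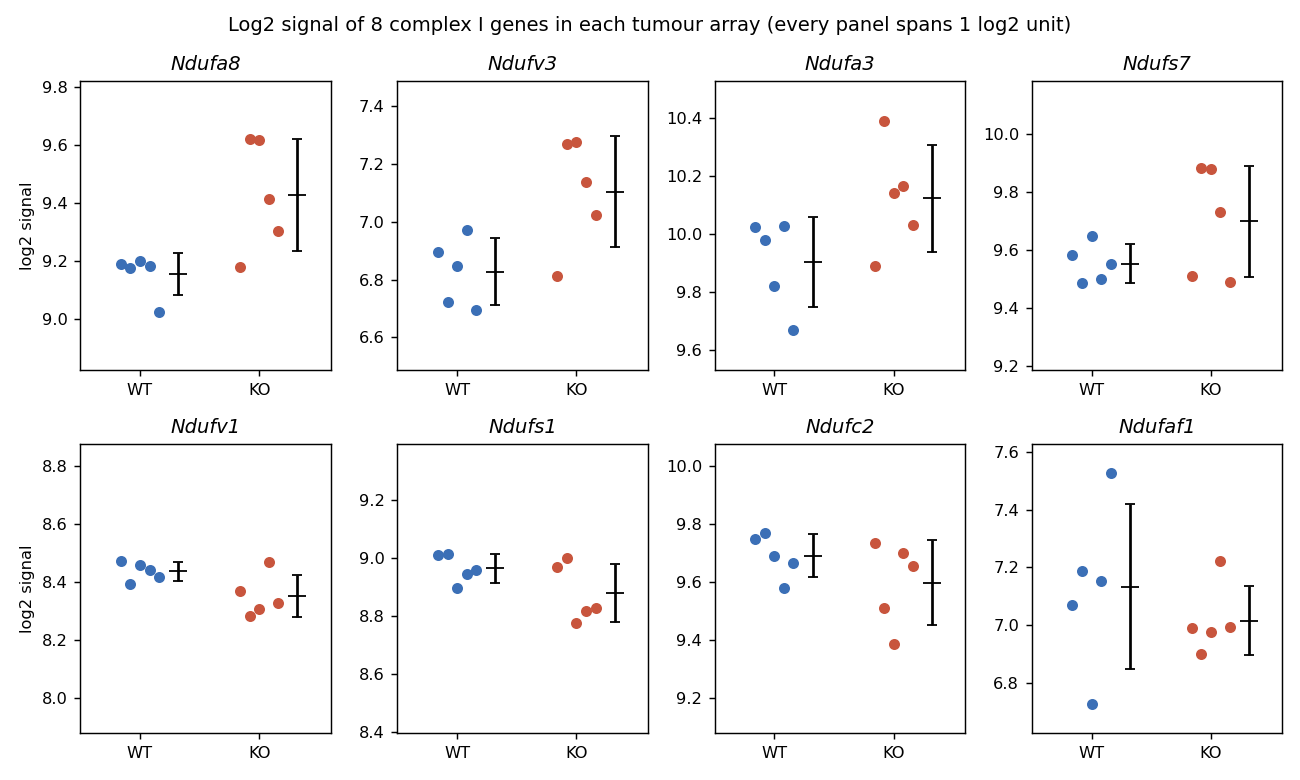
Log2 signal of 8 Nduf genes in each of 5 WT (blue) and 5 KO (red) tumours, with the mean and SD of each genotype beside the points; each panel spans 1 log2 unit. In Ndufa8, Ndufv3 and Ndufs7 KO replicates 7 and 8 lie above all WT values, and KO replicate 6 lies among them.

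The core subunits carry the flavin and iron-sulphur clusters along which electrons travel, and 6 of them could be followed. Ndufv1, which binds NADH and the flavin, had signals of 8.47, 8.39, 8.46, 8.44 and 8.42 in WT and 8.37, 8.28, 8.31, 8.47 and 8.33 in KO. In KO 4 of the 5 values were below the lowest WT value and 1, in replicate 9, was near the top of the WT range, and the difference was -0.085 ± 0.054 (SE; limma adjusted p = 0.910). Ndufs1, the largest iron-sulphur subunit, differed by -0.086 ± 0.062, with KO replicates 8, 9 and 10 (8.78, 8.82 and 8.83) below the lowest WT value of 8.90.

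Both genes belong to the steadiest of the 44. The standard deviation within genotypes was 0.056 for Ndufv1 and 0.079 for Ndufs1, which put them at percentiles 2.11 and 9.03 of all genes tested. Ndufv2, an iron-sulphur subunit of the N module, differed by -0.0018 ± 0.064. In the Q module Ndufs7, which holds the last iron-sulphur cluster before ubiquinone, was at 9.58, 9.48, 9.65, 9.50 and 9.55 in WT and 9.51, 9.88, 9.88, 9.73 and 9.49 in KO, a difference of 0.15 ± 0.090 (SE; limma adjusted p = 0.910). KO replicates 7, 8 and 9 lay above every WT value and the other KO values were within the WT range. Ndufs8 and Ndufs3, the other core genes of the Q module, differed by 0.012 ± 0.074 and -0.054 ± 0.088. Of the 6 core genes 2 had positive and 4 negative differences, with a median of -0.028.

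The accessory subunits are the larger group, with 29 genes including the Ndufa4 pair. Their differences were positive in 18 and negative in 11, with a median of 0.026. All 35 subunit genes together had 20 positive and 15 negative differences and a median of 0.012, against a median of -0.019 and 42.2% positive over all genes tested. This balance turned with the setting: 23 of 35 were negative with the smooth muscle score as a covariate, and the median of the subunits lay under 0 in 4 of the fits that left out 1 array. It was -0.0063 and -0.014 with WT replicate 2 or 3 removed, and -0.0099 and -0.0027 with KO replicate 7 or 9 removed. By module the median was -0.029 in the N module (10 genes), -0.0021 in the Q module (4), 0.22 in ND1 (3), 0.061 in ND2 (4), 0.021 in ND4 (4) and 0.018 in ND5 (6).

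Ndufc2, an accessory subunit of the ND2 module, is the Nduf gene nearest to Ucp2. It lies on chromosome 7, 53 measured genes away, while Ndufab1 and Ndufa3 on the same chromosome are 408 and 1223 genes away. Its signal was 9.75, 9.77, 9.69, 9.58 and 9.67 in WT and 9.74, 9.51, 9.39, 9.70 and 9.65 in KO, a difference of -0.093 ± 0.077 (SE; limma adjusted p = 0.910). KO replicates 7 and 8 were the lowest of all 10 tumours, and the other KO values lay within the WT range. The difference was -0.040 without KO replicate 8 and -0.041 with the smooth muscle score as a covariate.

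Ndufa4 and Ndufa4l2 carry complex I names, but the Ndufa4 protein has since been assigned to cytochrome c oxidase, and Ndufa4l2 is a relative known to be induced by hypoxia. Ndufa4 ranged from 10.15 to 10.44 in WT and from 10.10 to 10.31 in KO, a difference of -0.084 ± 0.073, or -0.047 without WT replicate 5. Ndufa4l2 was under the guide to background in both genotypes, with means of 4.41 and 4.36. Ndufb3, an accessory subunit of the ND5 module, was lower still, at 2.91 to 3.78 in WT and 3.17 to 3.69 in KO. Its signal was therefore not distinguished from background, and its spread says little about the gene.

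Signals of different probe sets cannot be ranked as expression, but each gene can be followed across tumours. The brightest probe set was that of Ndufb9 in the ND5 module, at 10.91 ± 0.08 (SD, n = 5) in WT and 10.97 ± 0.15 in KO. Its difference of 0.064 ran from 0.030 without KO replicate 7 to 0.12 without KO replicate 10, with 0.034 once KO replicate 9 was removed and 0.039 once WT replicate 3 was. Next to Ndufb3, the widest spread within genotypes was that of Ndufab1, the mitochondrial acyl carrier protein, with an SD of 0.275. It ranged from 7.61 to 8.25 in WT and from 7.69 to 8.33 in KO, so the genotypes covered nearly the same span. Ndufa7 of the N module followed with 0.240. It was at 7.33 in WT replicate 4 and 6.74 to 6.81 in the other WT tumours, and spread from 6.59 to 7.12 in KO. The median SD of the 44 genes was 0.130, against 0.149 over all genes tested.

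The assembly factors had small differences, 7 of 8 of them negative, with a median of -0.045. The split was 5 of 8 after cyclic loess normalization and without KO replicate 8, and over all genes tested 57.8% were negative, or 49.7% after cyclic loess. Ndufaf1, a factor of the membrane arm, was at 7.07, 7.19, 6.73, 7.15 and 7.53 in WT and 6.99, 6.90, 6.98, 7.22 and 6.99 in KO. WT replicates 3 and 5 were the lowest and the highest of the 10 values. The difference was -0.12 ± 0.13 (SE; limma adjusted p = 0.924), -0.22 without WT replicate 3 and -0.018 without WT replicate 5.

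Ndufaf2, an assembly relative of the subunit Ndufa12, differed by -0.011 ± 0.080. Ndufaf3 and Ndufaf4, partners in building the Q module in human cells, differed by -0.055 ± 0.081 and -0.076 ± 0.086. Single arrays weighed on both, with Ndufaf3 at -0.00093 once WT replicate 4 was removed, -0.016 once KO replicate 6 was and -0.088 once WT replicate 3 was. Ndufaf4 was at -0.15 without WT replicate 3 and -0.041 without WT replicate 1. Ndufaf5, an enzyme that in human cells modifies the Ndufs7 protein, had -0.029 ± 0.070 at a mean signal of 5.19, near the guide to background. Its human partner Ndufaf8 had 0.018 ± 0.056. The early factor Ndufaf6 and the methyltransferase Ndufaf7 had -0.036 ± 0.072 and -0.064 ± 0.085. Removal of WT replicate 5 or KO replicate 8 brought Ndufaf7 to -0.022 or -0.020, and removal of WT replicate 3 or KO replicate 10 to -0.098 or -0.12. Ndufaf8 was the second steadiest of the 44 genes, with an SD of 0.061.

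Other genes around complex I were read from lists of their own. Of 13 assembly genes with other names 5 were positive and 8 negative, with a median of -0.020 and 0 at unadjusted p under 0.05. The smallest p there belonged to Dmac1, an assembly factor of the distal membrane arm (0.070 ± 0.060), Acad9, a partner of Ndufaf1 (0.082 ± 0.074), and Lyrm2 (-0.13 ± 0.18). Among 11 regulators of mitochondrial biogenesis, Lrpprc, which stabilises mitochondrial messenger RNA, had less signal in KO at unadjusted p under 0.05 (-0.18 ± 0.076; limma adjusted p = 0.910). Nrf1, which encodes the factor named above, differed by -0.095 ± 0.070 and Tfb2m, a factor of mitochondrial transcription, by 0.072 ± 0.135 at a signal below the guide to background. In complexes II to V 22 of 42 genes were positive, with a median of 0.0044. There 3 were higher and 1 lower at unadjusted p under 0.05, which is 9.52% against 4.77% of all genes tested. Mean signals of 7 of the 42 lay below the guide to background. The smallest p were those of Atp5d of ATP synthase (0.30 ± 0.11; limma adjusted p = 0.910), Cox6a1 of cytochrome c oxidase (0.25 ± 0.10) and Uqcrfs1 of complex III (-0.16 ± 0.066).

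The second question was how the subunit genes vary from tumour to tumour, whatever the genotype. Averaged over the 35 subunits, the log2 signal relative to the 10 arrays was 0.080, -0.048, -0.074, 0.050 and -0.059 in WT replicates 1 to 5 and -0.082, 0.093, -0.0098, 0.052 and -0.0029 in KO replicates 6 to 10. High and low tumours occurred in both genotypes, and the ranges overlapped almost entirely. The group means were -0.010 ± 0.070 (SD, n = 5) and 0.010 ± 0.066. In KO replicate 7 and in WT replicate 1, 26 of 35 subunits were above their own mean, and in KO replicate 6, WT replicate 2 and WT replicate 3 only 9 were. WT replicate 1 was the highest of the 10 tumours for 12 subunits, and KO replicate 6 the lowest for 9.

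**Figure D3:**
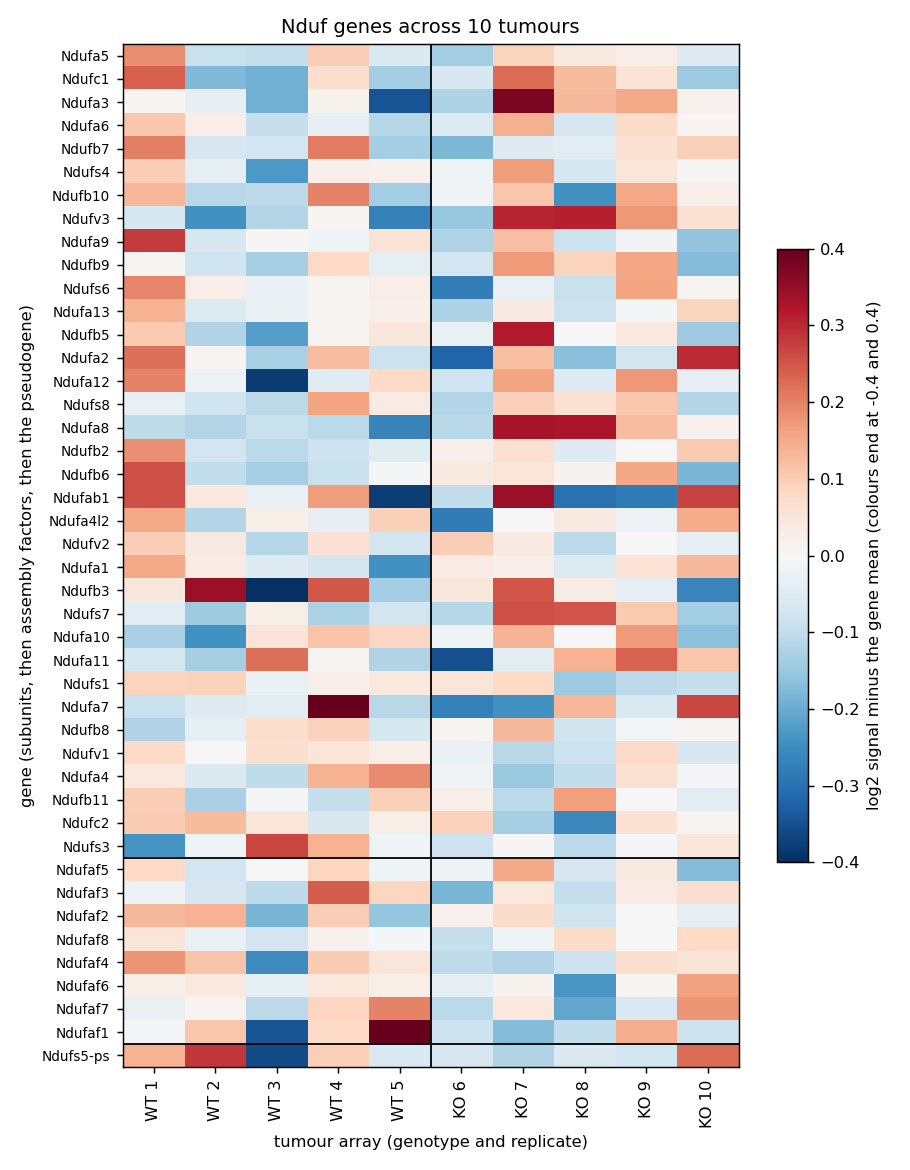
Log2 signal of each Nduf gene in each tumour minus the mean of the gene over the 10 arrays, with subunits, assembly factors and the pseudogene in blocks, each block sorted by likeness to the subunit mean. WT 1 and KO 7 are mostly red and KO 6 and WT 3 mostly blue in the upper part of the subunit block, and the lower part does not follow.

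The subunits moved together to a moderate degree. With genotype means removed, each subunit was correlated over the 10 arrays with the mean of the other 34. The median r was 0.48, and 16 of 35 (45.7%) were above 0.5, against a median of 0.011 and 10.2% for the other genes. The median was 0.49 without WT replicate 5, the array that stood apart, and it lay between 0.48 and 0.56 with any 1 array left out. Over the 595 pairs of subunits the median r was 0.23, and 433 pairs (72.8%) were positive. The likeness was not particular to complex I. With the mean of the 35 subunits, genes of complexes II to V had a median r of 0.50, and 21 of 42 were above 0.5. The 8 epithelial markers had a median r of 0.57, and 5 were above 0.5. Of all 23111 genes tested, 9204 had mean signals below the guide to background. All of these values come from the same 10 arrays and the same normalization.

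Ndufa5 of the Q module followed the others most closely (r = 0.94), and its pair with Ndufc1 had the highest r of all pairs, 0.94; both were named after their values were seen. Ndufa5 ranged from 7.28 to 7.57 in WT and from 7.24 to 7.47 in KO. The least like were Ndufs3 (r = -0.30), Ndufc2 (r = -0.29) and Ndufb11 of the ND4 module (r = -0.22). Ndufs3 had its lowest signal, 6.08, in WT replicate 1, where the subunit mean was high, and its highest, 6.58, in WT replicate 3, where the subunit mean was low. Core subunits had a median r of 0.23, against 0.64 for the accessory subunits.

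Some subunits followed each other more closely than the subunit mean. Ndufa8 went with Ndufv3 at r = 0.90 and with Ndufs7 at r = 0.86 after removal of genotype means, and these genes were high in KO replicates 7 and 8 but not in WT replicate 1. Ndufc2 ran against them, with r = -0.71 with Ndufa8 and -0.74 with Ndufv3. Their r with the mean of the other subunits was 0.69 for Ndufv3, 0.50 for Ndufa8 and 0.32 for Ndufs7. In KO replicate 8 the mean over the 35 subunits was -0.0098, while these 3 genes were at or near their highest. With genotype means kept, r with the first principal component of all genes was -0.82 for Ndufa8, -0.76 for Ndufv3 and -0.73 for Ndufs7. For Ndufa3 it was -0.79. Over the 35 subunits the median of this r was -0.14, with 1 gene over 0.5 and 5 under -0.5.

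**Figure D4:**
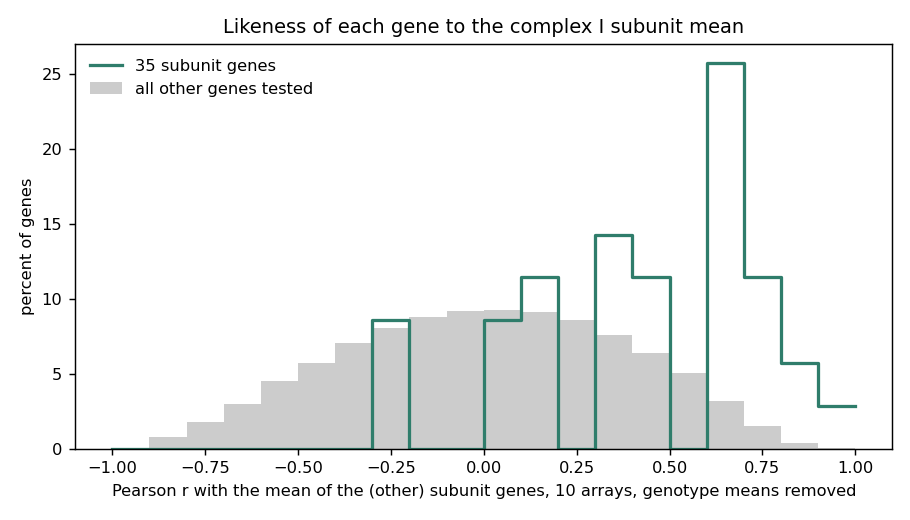
Percent of genes by their Pearson r with the mean of the subunit genes over 10 arrays after removal of genotype means, for the 35 subunits (line, each against the other 34) and all other genes tested (grey bars). Of the subunits 16 lie above 0.5, where 10.2% of the other genes do. Among those other genes, 21 of the 42 genes of complexes II to V lie above 0.5.

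The tumour score of the 35 subunits was set beside those of other gene groups, as a description over 10 arrays. It went with the score of 42 genes of complexes II to V (Pearson r = 0.88, Spearman rho = 0.83), and r was 0.94 without the 2 arrays farthest from the median of that score. It also went with the score of 8 epithelial markers (r = 0.76, rho = 0.87, and r = 0.81 without WT replicates 3 and 5). The epithelial score was lowest in WT replicate 5, at -0.29, and in WT replicate 3, at -0.14. Fitted with the epithelial score as a covariate, the median difference of the subunits was -0.0063. Other scores had a smaller r, which in most cases moved when the 2 arrays farthest from the median of each were left out. It went from 0.53 to 0.61 for T cells, from 0.46 to 0.18 for goblet cells, from 0.40 to 0.31 for smooth muscle and from 0.35 to 0.045 for macrophages. For colonocytes it went from 0.34 to 0.18, for fibroblasts from -0.11 to 0.28 and for proliferation from 0.015 to -0.32. For the regulators of mitochondrial biogenesis it was -0.40 and stayed at -0.39. For the Ndufaf genes it went from 0.47 to 0.32, and for assembly genes with other names from 0.34 to 0.0089. The part of the share of epithelial cells in the spread of the subunit score was not tested.

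**Figure D5:**
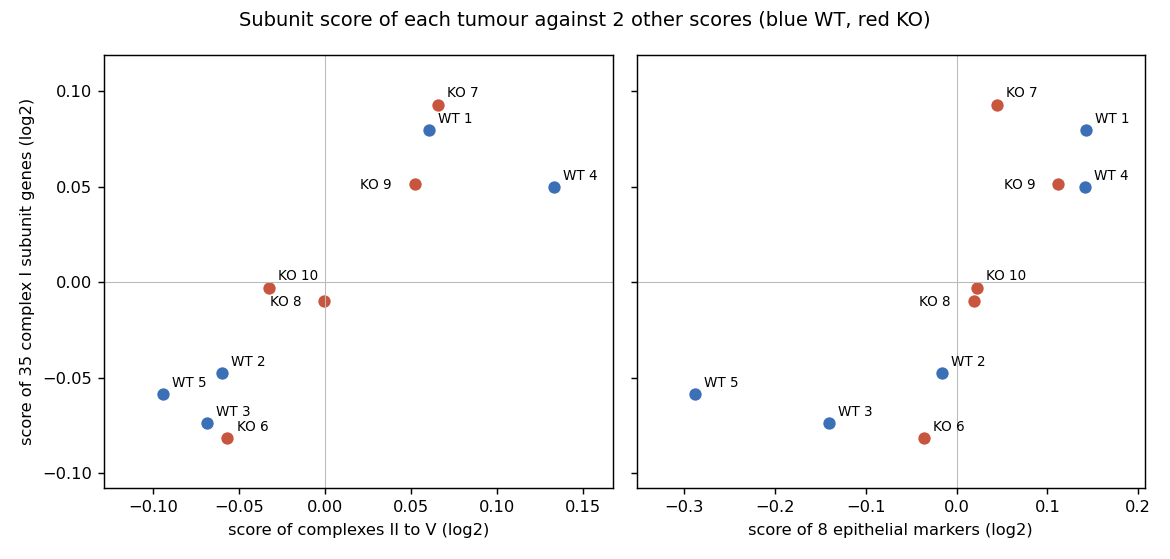
Score of the 35 complex I subunit genes in each tumour against the score of 42 genes of complexes II to V (left) and of 8 epithelial markers (right), all as mean log2 signal relative to the 10 arrays; WT in blue, KO in red. Tumours of both genotypes lie at both ends of the subunit score. For the epithelial markers WT 5 (-0.29) and WT 3 (-0.14) are lowest, and the KO tumours lie between -0.036 and 0.11.

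Outside the lists, the genes whose 10 values were most like the subunit score were Abhd17c, a depalmitoylating enzyme (r = 0.93), Mir1193 (0.92), Ccdc178 (0.90), Prkar2a, a regulatory subunit of protein kinase A (0.89), Vmn1r127, a vomeronasal receptor (0.89), and Suclg1, a subunit of succinyl-CoA ligase of the tricarboxylic acid cycle (0.88). Mir1193 and Ccdc178 had mean signals of 3.73 and 3.37, below the guide to background. They were picked as the highest of 22940 genes over 10 arrays, where 47 exceeded 0.8 and 124 lay under -0.8.

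Ndufs5-ps, the pseudogene, was at 7.57, 7.72, 7.08, 7.53 and 7.37 in WT and 7.37, 7.31, 7.38, 7.36 and 7.66 in KO. WT replicate 3 was lowest and WT replicate 2 highest, and the difference was -0.040 ± 0.12 (limma adjusted p = 0.975). Its probes can bind the transcript of the parent gene, so this value is uncertain for either. The 18 subunit genes that were not chosen for naming had differences between -0.10 (Ndufa9) and 0.078 (Ndufc1).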

How the data were processed

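RNA of 10 colon tumours, 5 WT and 5 KO, was amplified, biotin-labelled and read on 1-colour Affymetrix arrays, per the labels' protocols. For every probe set on every array the authors deposited a log2 signal; the base of 2 was taken from the range. Per the submitters' processing notes RMA and Partek were used; versions and build are not given in the sources consulted. Of 23747 probe sets, 23111 have 1 symbol in the platform annotation and were tested, 0 have several, and 636 are unnamed here. Deposited values were taken unchanged. Genotypes were compared with limma 3.58.1 (lmFit and eBayes, R 4.3.3) without covariates, and p-values were adjusted by Benjamini-Hochberg across the 23111 genes; the code was tested on simulated data. RMA equalises arrays, which hides any shift common to all genes. The number of arrays limits the precision.

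The members and lists were chosen with earlier results of these data known. Named were members at unadjusted p under 0.05 or with separate groups, core subunits, all Ndufaf genes, Ndufa4, Ndufa4l2 and Ndufc2, the 3 brightest, dimmest, most and least variable members, the 3 least like the other subunits, up to 3 genes of each pathway list and the 6 genes most like the subunit score. The alternatives left out each array or dim genes, normalized again (quantile, cyclic loess, median), used an intensity trend with robust estimation, array weights or all probe sets, or added the epithelial or smooth muscle score as a covariate. One more, chosen after seeing the data, left out Ndufa4, Ndufa4l2 and Ndufb3.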

Additional observations from a re-analysis of the deposited data

Results flagged for a closer look

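In groups of 5 arrays, 8 of 92 tested held 1 array whose gap to the next exceeded the 95% critical value of Dixon's test, where chance gives about 1 in 20. Ndufa7 was 7.33 in WT replicate 4 (others 6.74 to 6.81), Ndufa8 9.02 in WT replicate 5 (9.17 to 9.20) and Ndufaf6 5.83 in WT replicate 3 (5.89 to 5.91). WT replicate 1 was far above the others in Ndufb2 (8.43 against 8.14 to 8.20) and Ndufs6 (10.12 against 9.89 to 9.95). In KO, Ndufaf1 was 7.22 in replicate 9 (6.90 to 6.99) and Ndufs5-ps 7.66 in replicate 10 (7.31 to 7.38). The mean of the assembly factors relative to the 10 arrays was -0.14 in WT replicate 3, against 0.031 to 0.094 in the other WT arrays.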

How the results depend on the processing

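No Nduf gene passed the adjusted threshold in the main fit or under any of the 19 alternatives. The count at unadjusted p under 0.05 was 2, or 2 to 3 with single arrays left out, and 0 with the smooth muscle score as a covariate. The median difference ranged from -0.014 to 0.039 for subunits and from -0.079 to -0.018 for assembly factors with single arrays left out. Members near 0 changed sign when single arrays were left out: Ndufa4l2 (-0.091 to 0.016), Ndufa7 (-0.15 to 0.039), Ndufab1 (-0.12 to 0.048), Ndufaf2 (-0.059 to 0.023), Ndufaf5 (-0.071 to 0.011), Ndufaf6 (-0.080 to 0.018), Ndufaf8 (-0.00027 to 0.043), Ndufb11 (-0.025 to 0.043), Ndufb3 (-0.12 to 0.099), Ndufs3 (-0.12 to 0.0059), Ndufs8 (-0.014 to 0.053), Ndufv2 (-0.030 to 0.025). Ndufs8 was -0.014 after quantile normalization, -0.0063 with the epithelial and -0.041 with the smooth muscle score. Ndufb3 was -0.046 with array weights and -0.053 and -0.061 with these scores. Ndufaf2 and Ndufaf5 were 0.017 and 0.0068 after cyclic loess, Ndufv2 was 0.0018 after median centring, and Ndufaf6 and Ndufb9 were 0.011 and -0.0094 with the smooth muscle score. The cause was not tested. No paired analysis was possible because the labels do not pair samples across the genotypes. Signal over background limits Ndufb3 and Ndufa4l2. Ndufaf5 (mean signal 5.19) and Ndufa11 (5.31) lay just above the guide to background of 5.14, and single arrays of each lay under it.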
